A study of Rattus norvegicus with 12 samples.

Results

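The miRNAs described here are 48 names of the cluster that runs from miR-379 to miR-410, out of 685 miRNA names and 805 small RNA names counted in cultured rat cortical neurons. They were chosen by name: every mature miRNA, of either arm, named for miR-379, miR-411, miR-299a, miR-299b, miR-323, miR-1193, miR-667, miR-494, miR-376a, miR-376b, miR-376c, miR-300, miR-487b, miR-539, miR-544, miR-382, miR-154, miR-496, miR-377, miR-541, miR-409a, miR-412, miR-369, miR-410 or miR-668, while miR-1197, miR-679 and miR-487a, which the same rule lists, are not analysed here. Other miRNAs of the same imprinted locus, such as miR-134 and miR-495, formed a separate list of 45 names. The rule uses names only.

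The neurons came from the cortex of Sprague Dawley rat embryos at embryonic day 17 and were plated at 100000 cells per cm2. Lentivirus was added to all cultures after 10 days in vitro, and RNA was taken at day 14, so every group carries a virus and an shRNA, a short hairpin RNA that directs degradation of a matching mRNA. The shRNA was non-targeting (shNTC, the reference), against Stau2 (shStau2) or against Pum2 (shPum2, which the design names as a further control for effects of any shRNA), with 4 libraries each, named in the labels as biological replicates with numbers from 1 to 4. Staufen2 (gene Stau2) recognises double-stranded stretches of RNA, and Pumilio 2 (gene Pum2) recognises short sequence motifs in mRNAs. The depletion of the targeted mRNAs was not analysed here, since the counts are of small RNAs. The sources used here do not say whether replicates came from separate preparations of neurons, so p-values measure the spread between these libraries.

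The cluster lies in the Dlk1-Dio3 domain, an imprinted region in which protein-coding genes such as Dlk1 and Dio3 are expressed from the paternal chromosome and non-coding RNAs from the maternal one. Its miRNAs are cut out of long maternally expressed non-coding transcripts, and many of them are enriched in brain, where transcription of the cluster is known to respond to neuronal activity. Each hairpin is cut by Drosha and Dicer into a duplex, whose 5p and 3p strands come from its left and right arm. An Argonaute protein keeps mostly 1 strand, and the seed of that strand (bases 2 to 8) pairs with target mRNAs.

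All 48 names matched a mature sequence in RefSeq (build GRCr8). In that build they come from 25 hairpins on chromosome 6, with mature strands between 134543460 and 134579828, a stretch of 36.4 kb. Of the hairpins, 24 are on the plus strand, and 1, miR-299b, is on the minus strand across miR-299a. The mature sequences are 17 to 25 nt long. The 8 members with the highest levels are shown first, since they carry most of the cluster's counts, with the seed in capitals.
miR-382-5p: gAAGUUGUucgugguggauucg
miR-379-5p: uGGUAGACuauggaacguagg
miR-323-3p: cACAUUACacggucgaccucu
miR-411-5p: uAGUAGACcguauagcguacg
miR-300-3p: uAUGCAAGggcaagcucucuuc
miR-369-5p: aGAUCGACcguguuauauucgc
miR-541-5p: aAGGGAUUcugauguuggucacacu
miR-376b-3p: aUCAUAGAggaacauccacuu

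The 48 sequences hold 43 different seeds, so most members would pair with different target sites, and 9 members share their seed with another member. The seed GGUUGUC is common to miR-410-5p, miR-494-5p and miR-496-5p. The 3p strands of the miR-376 hairpins, neighbours whose precursors are known substrates of adenosine-to-inosine editing in brain, are shown because they differ in few bases and could exchange reads.
miR-376a-3p: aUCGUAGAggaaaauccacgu
miR-376b-3p: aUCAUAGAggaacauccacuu
miR-376c-3p: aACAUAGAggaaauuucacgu

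Counted from 1 at the 5′ end of the first sequence named, miR-376a-3p and miR-376b-3p differ by G4A in the seed and by A13C and G20U outside it. Between miR-376a-3p and miR-376c-3p the differences are U2A and G4A in the seed and A14U and C16U outside it. The 3 strands therefore have different seeds. On their other arm, miR-376b-5p and miR-376c-5p share a run of 18 bases and a seed.

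The hairpins miR-299a and miR-299b face each other on opposite strands, and their mature strands are nearly the same, which is why they are shown together.
miR-299a-3p: uAUGUGGGacgguaaaccgcu
miR-299b-3p: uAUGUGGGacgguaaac
miR-299a-5p: uGGUUUACcgucccacauacau
miR-299b-5p: cGGUUUACcgucccacauac

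The 17 bases of miR-299b-3p are wholly contained in miR-299a-3p, and miR-299b-5p shares a run of 19 bases with miR-299a-5p. The sources used here do not say how the authors' counting divided reads between such names, so the values of miR-299a, miR-299b and of the miR-376 strands are uncertain to that extent.

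The strands with the smallest p in a comparison, apart from those above, and miR-668, which varied most clearly between replicate numbers, have these sequences.
miR-410-3p: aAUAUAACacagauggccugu
miR-667-5p: cGGUGCUGguggagcagugagcac
miR-544-3p: aUUCUGCAuuuuuagcaagcu
miR-377-3p: uGAAUCACacaaaggcaacuuuu
miR-667-3p: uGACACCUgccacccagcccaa
miR-382-3p: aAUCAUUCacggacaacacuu
miR-668: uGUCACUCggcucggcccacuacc

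Libraries held 3836349 to 5415763 counts in all, and 653 to 662 miRNA names had at least 1 count. Levels are CPM, counts scaled to a common miRNA total and by the trimmed mean of M-values (TMM), on which a floor of 3 counts stands at 0.588 to 0.763. They are shares of a library, so fewer cells of a type and less RNA per cell cannot be told apart. The label neurons was checked with marker miRNAs. All 7 neuronal markers, such as miR-124-3p, miR-128-3p and miR-9a-5p, had counts in every library and summed to 278152 to 343115 CPM. The part of each marker in that sum is not given here. Markers of oligodendrocytes (3 of 3 counted in every library) summed to 219.3 to 406 CPM, and those of vessels and mesenchyme (6 of 6) to 558 to 1067 CPM. Markers of blood and microglia (3 of 6 counted in every library, with no name for miR-144-3p) summed to 126.2 to 181 CPM for shNTC libraries, 85.4 to 127.6 for shStau2 libraries and 133.8 to 190.8 for shPum2 libraries, so the shStau2 range lay below that of shPum2 and mostly below that of shNTC. The 3 markers of astrocytes and dividing cells (3 of 3 counted in every library) summed to 4364 to 7318 CPM for shNTC libraries, 2510 to 3893 for shStau2 libraries and 3001 to 5296 for shPum2 libraries, so the shStau2 range lay below that of shNTC. The part of these markers in the differences below was not tested.

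The filter on low counts kept 47 of the 48 members and 628 of the 685 miRNA names. The member it removed, miR-496-5p, had 29 counts in all, with 8 and 10 in shNTC replicates 2 and 3, 5 and 6 in shPum2 replicates 2 and 3, and 0 in the other 8 libraries. Between 1.89 and 2.36% of a library's miRNA counts came from the members. Summed over the members, shNTC had 21732 ± 827 CPM, shStau2 21318 ± 586 and shPum2 22063 ± 385 (SD, n = 4 each), and the ranges of the groups overlapped.

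Levels within the cluster were very unequal. Of the 47 members, 8 had a mean of at least 1000 CPM over the 12 libraries, 12 lay between 100 and 1000, 17 between 10 and 100, and 10 below 10. The 8 most abundant made up 79% of the members' sum. The highest member, miR-382-5p, alone gave 21.8% of it and ranked 28 among the 628 miRNAs. Its mean was 2159-fold that of the lowest tested member, miR-494-5p.

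Before any comparison, the values of the 8 most abundant members were as follows. The strand miR-382-5p stood at 4827, 4141, 4597 and 4826 CPM in shNTC replicates 1 to 4, 4439.7, 4701, 4629 and 5092 in shStau2 and 4527, 4932, 4739 and 5300.0 in shPum2. For miR-379-5p, the first hairpin of the cluster, the levels were 3119, 2991, 3058 and 3263 CPM in shNTC replicates 1 to 4, 3025, 3009.6, 3023 and 3340.5 in shStau2 and 3128, 3098, 3189 and 3639 in shPum2. The strand miR-323-3p had 2949.7, 2746, 2623 and 2588 CPM in shNTC replicates 1 to 4, 2681, 2801, 2451 and 2474 in shStau2 and 2594, 2972, 2365 and 2441 in shPum2. In these 3 the groups overlapped, and the highest library was 1.28-fold, 1.22-fold and 1.26-fold the lowest.

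The next hairpin after miR-379 is miR-411, and miR-411-5p measured 1653, 1747, 1774 and 1983 CPM in shNTC replicates 1 to 4, 1739, 1743, 1752 and 1899 in shStau2 and 1886, 1770.3, 1886 and 1872 in shPum2. The levels of miR-300-3p were 1369, 1547, 1425 and 1907 CPM in shNTC replicates 1 to 4, 1315, 1386, 1366 and 1537 in shStau2 and 1669.5, 1570.4, 1737 and 1726 in shPum2. Here every shStau2 library was below every shPum2 library, while the shNTC libraries ranged across both, with replicate 4 the highest of all.

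For miR-369-5p the values were 1366, 1269, 1195 and 1251 CPM in shNTC replicates 1 to 4, 1266, 1228, 1183 and 1219.5 in shStau2 and 1260.4, 1231, 1202 and 1190.2 in shPum2, the narrowest spread among the 8, with a highest library 1.15-fold the lowest. The strand miR-541-5p had 1122, 1004.6, 937 and 982 CPM in shNTC replicates 1 to 4, 1004.8, 997, 991 and 1137 in shStau2 and 1053, 1074, 834 and 1155 in shPum2. The levels of miR-376b-3p were 879, 891, 1033 and 1177 CPM in shNTC replicates 1 to 4, 978, 919, 1047 and 1049.7 in shStau2 and 1020.3, 959, 1196 and 929 in shPum2. The groups overlapped for these 3 strands too. From miR-382-5p down to miR-541-5p, each of these strands was above the next in all 12 libraries. The last of them, miR-541-5p and miR-376b-3p, at means of 1024 and 1007 CPM, changed places in some libraries and did not differ beyond their spread.

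**Figure D1:**
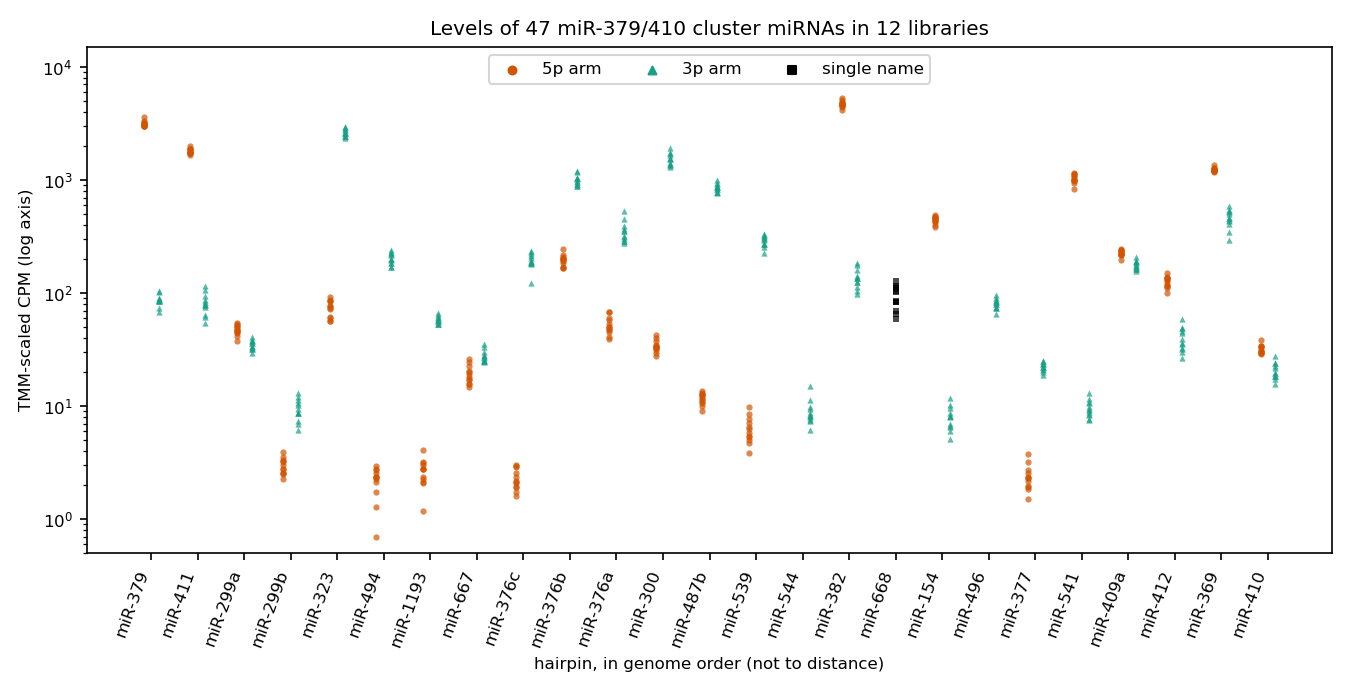
TMM-scaled CPM (log axis) of the 47 tested members in each of the 12 libraries, with hairpins in genome order from miR-379 to miR-410; circles are 5p strands, triangles 3p strands and squares miR-668, which has no arm in its name. Hairpins with over 1000 CPM stand beside ones below 100, and the points of 1 strand lie close together compared with the gaps between strands.

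Level did not follow position along the cluster. Summing the arms of each hairpin, 8 of 25 hairpins had more than 1000 CPM, and they were spread from miR-379 at the start to miR-369, the last but one. The highest hairpin, miR-382 at 4866 CPM, is next among the members to the lowest, miR-544 at 9.02 CPM, a 539.5-fold difference. At the end of the cluster miR-412, with 166 CPM, is followed after 69 bases by miR-369 with 1699.8 CPM, 10.2-fold higher, and after another 245 bases by miR-410 with 52.7 CPM, which is 32.2-fold lower than miR-369. These distances run between the outermost mature strands, not between the ends of the hairpins. The miR-376 hairpins, which follow each other among the members, had 198 CPM for miR-376c, 1203 for miR-376b and 406 for miR-376a. Mature miRNA counts also depend on ligation and amplification of each sequence, which was not measured here, so differences between strands are differences in counts.

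The 5p and 3p strands of a hairpin are cut from the same precursor, and library scaling cancels in the ratio of their counts. Both arms passed the filter for 22 member hairpins, out of 208 hairpin names. The strand with more counts was the same in all 12 libraries for each of the 22, the 5p strand in 10 and the 3p strand in 12. For 12 of them it exceeded its partner by over 10-fold. The most one-sided towards 5p were miR-541 (106-fold), miR-154 (56.1-fold) and miR-379 (36.4-fold), and towards 3p miR-494 (92.8-fold), miR-376c (82-fold) and miR-487b (73.5-fold). Of the minor strands, miR-494-5p averaged only 2.19 CPM and stood at the floor in shPum2 replicate 1 (0.693 CPM). The mean of miR-376c-5p was 2.29 CPM, and it shares 18 bases with miR-376b-5p, so its reads may have been counted there. These folds are uncertain to that extent.

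At the other end, both strands of some hairpins had similar counts. In miR-409a the 5p strand gave 56% of the hairpin's counts, 1.28-fold its partner, and in miR-299a it gave 57.5%. The 3p strand of miR-667 was 1.46-fold its partner, and its log2 ratio of 5p to 3p came nearest to 0 in shNTC replicate 3, at -0.02. For miR-410 the 5p strand gave 60.8% of the counts and was higher in all 12 libraries.

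**Figure D2:**
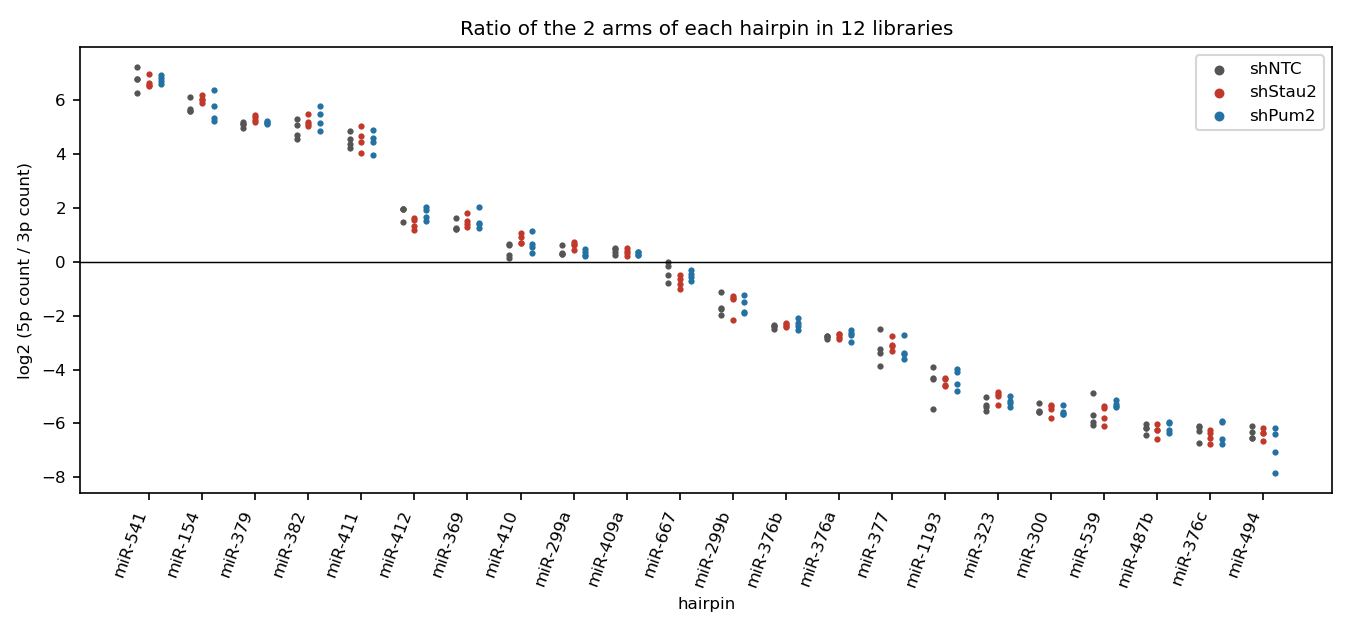
Log2 of the 5p count over the 3p count (each plus 0.5) for the 22 member hairpins with both arms tested, ordered from 5p-rich to 3p-rich; each point is 1 of 12 libraries, coloured by group. The points of each hairpin stay on 1 side of 0 in all 12 libraries.

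The comparison of shStau2 with shNTC asks what changes when Staufen2 is depleted. No member passed the test: 0 of 47 had an adjusted p under 0.05 in edgeR's quasi-likelihood test with Benjamini-Hochberg adjustment, where 0.318% of all 628 miRNAs passed, and the smallest adjusted p among the members was 0.294. At an unadjusted p under 0.05 there was 1 member, lower in shStau2, against 11.3% of all miRNAs. It was 3 without shPum2 replicate 4 and 2 without shStau2 replicate 4 or any 1 shNTC library. DESeq2 called 0 members (2.87% of all), edgeR with the replicate number as a block called 0 (6.21% of all, smallest adjusted p of a member 0.108) and DESeq2 with the block called 0 (6.05% of all). The block raised the members with an unadjusted p under 0.05 to 10, of which 3 were higher and 7 lower, beside 22.5% of all miRNAs. With it the smallest p were those of miR-382-3p and miR-369-3p, both lower in 4 of 4 pairs. For miR-382-3p the log2 fold change was -0.27 (SE 0.09, unadjusted p = 0.0101, adjusted p = 0.108 in edgeR with the block). For miR-369-3p it was -0.23 (SE 0.08, unadjusted p = 0.0111, adjusted p = 0.109 in edgeR with the block). DESeq2 with the block gave miR-369-3p an adjusted p of 0.0648. Both strands were also lower in 4 of 4 pairs in shPum2 against shNTC. There edgeR with the block gave log2 fold changes of -0.32 for miR-382-3p and -0.25 for miR-369-3p. In shStau2 against shPum2 it gave 0.05 and 0.02.

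The log2 fold changes of the members were small. Of the 47, 31 were below 0 and 16 above, with a median of -0.07, beside a median of 0.00 and 49.5% below 0 over all miRNAs. The members' median was -0.04 without shNTC replicate 1, -0.03 without shNTC replicate 4, -0.03 without shStau2 replicate 3 and -0.13 with library totals in place of TMM, and it stayed below 0 in all 26 alternatives. Their 95% intervals reached from -0.92 to 0.83 over all members and only from -0.37 to 0.25 over the 8 members of at least 1000 CPM, so the intervals of these abundant strands leave out a change of 1 on the log2 scale in either direction.

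The member with the smallest p without the block was miR-410-3p, a strand of low level, with 24.2, 21.6, 19.6 and 27.7 CPM in shNTC replicates 1 to 4, 18.4, 18.3, 15.8 and 18.5 in shStau2 and 19.6, 22.8, 23.9 and 17.5 in shPum2. All shStau2 libraries were below all shNTC libraries. Its log2 fold change in shStau2 against shNTC was -0.39 (SE 0.15, unadjusted p = 0.0182 and adjusted p = 0.294 in edgeR's quasi-likelihood test), and it was lower in 4 of 4 pairs of the same number.

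The strand miR-377-3p had 23.5, 23.8, 25.1 and 22.1 CPM in shNTC replicates 1 to 4, 18.8, 20.9, 21.4 and 20.1 in shStau2 and 25.2, 22.3, 23.9 and 22.1 in shPum2. Its shStau2 libraries also lay below every shNTC library, and the log2 fold change was -0.22 (SE 0.12, adjusted p = 0.509 in edgeR's test). The third member without overlap between these groups, miR-409a-5p, had 247, 233, 242 and 239 CPM in shNTC and 222, 219.2, 196 and 220.4 in shStau2. Such separation, in 3 of 47 members (6.38%, all lower), was seen in 9.55% of all miRNAs.

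The remaining strands among the 4 with the smallest p overlapped between the groups. The strand miR-667-5p had 22.7, 17.96, 24.7 and 15.8 CPM in shNTC replicates 1 to 4, 17.2, 14.8, 17.05 and 15.6 in shStau2 and 19.9, 19.3, 20.6 and 25.9 in shPum2, and its log2 fold change was -0.33 (SE 0.16, adjusted p = 0.486 in edgeR's test). For miR-544-3p, whose hairpin was the lowest of the cluster, the values were 7.88, 15.1, 8.23 and 9.93 CPM in shNTC replicates 1 to 4, 6.13, 8.12, 7.55 and 8.40 in shStau2 and 11.3, 9.41, 7.48 and 8.65 in shPum2. Its log2 fold change was -0.44 (SE 0.23, adjusted p = 0.495 in edgeR's test), and shNTC replicate 2 stood above the other 11 libraries. Without that library it was -0.20.

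**Figure D3:**
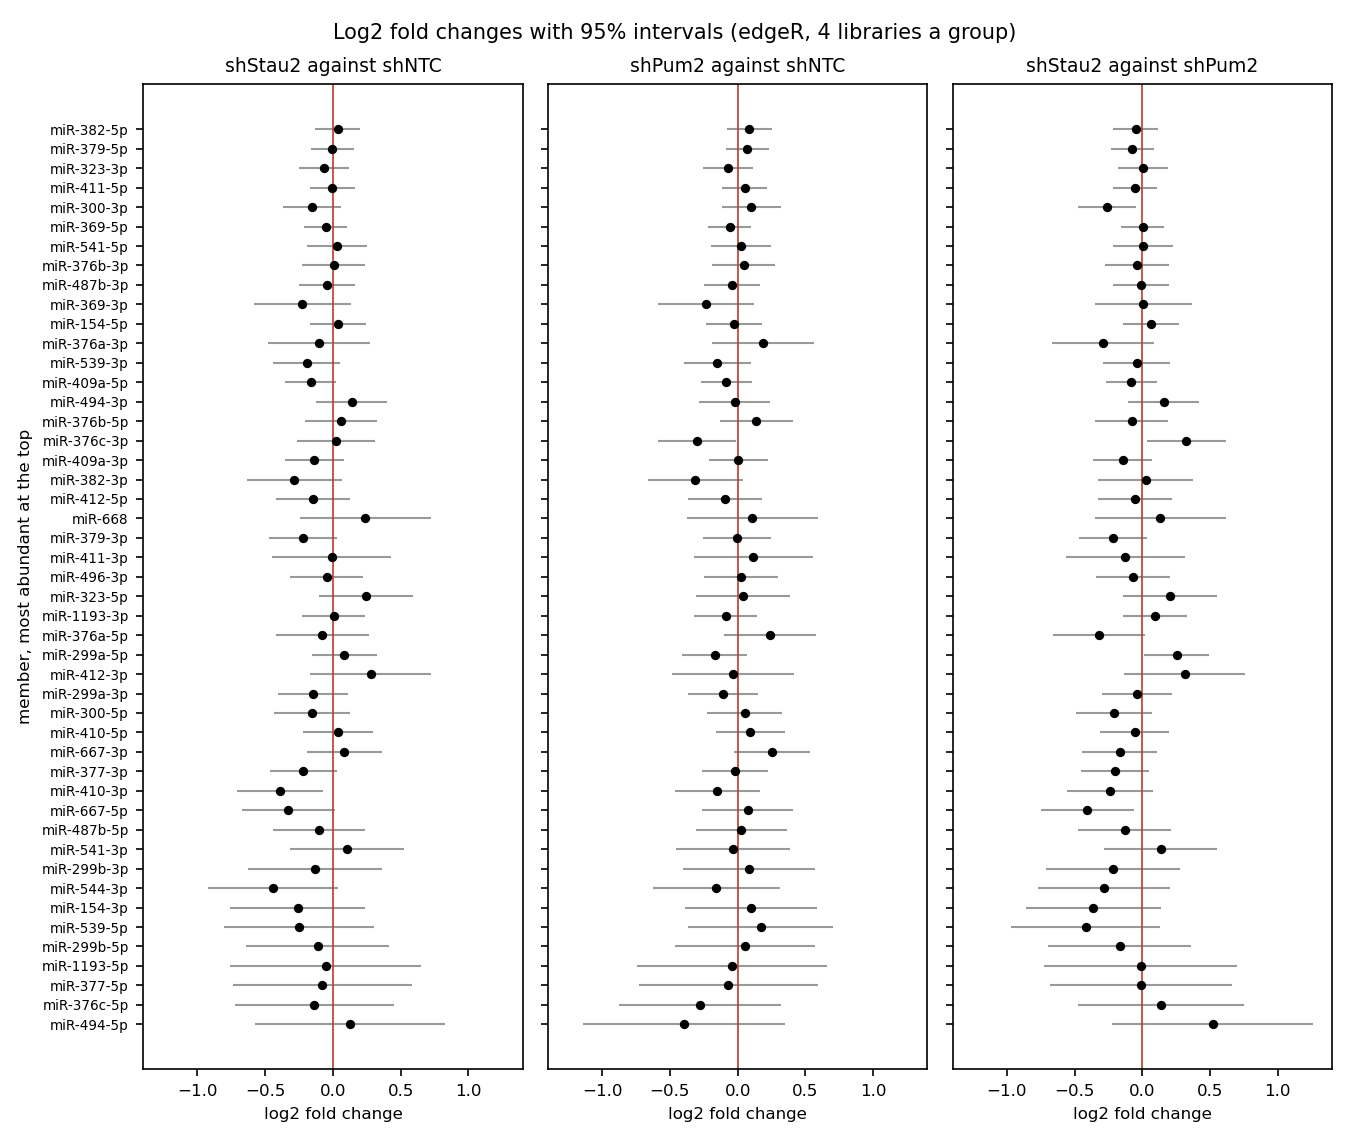
Log2 fold change of each of the 47 tested members (points) with its 95% interval (lines) in the 3 comparisons, from edgeR with 4 libraries a group, with the most abundant member at the top; the vertical line marks 0. In the panels from left to right, 31, 24 and 31 of the 47 points lie below 0. The fit shown leaves out the replicate block.

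The comparison of shPum2 with shNTC asks what another active shRNA changed. Here too 0 of 47 members passed edgeR's quasi-likelihood test with Benjamini-Hochberg adjustment (smallest adjusted p 0.982), and the share of all miRNAs called was 0%. There was 1 member with an unadjusted p under 0.05, beside 1.43% of all miRNAs. That count was 0 on leaving out shNTC library 1 or 2, library 1, 2 or 3 of shStau2, or shPum2 library 4. It was 3 without shPum2 replicate 1 and 4 without shNTC replicate 4. DESeq2 (0% of all), edgeR with the block (0.159% of all) and DESeq2 with the block (0.318% of all) called 0 members each. With the block 5 members had an unadjusted p under 0.05, 2 higher and 3 lower, beside 7.32% of all. The lower ones were miR-382-3p (unadjusted p = 0.00309), miR-376c-3p (0.00371) and miR-369-3p (0.00593) in edgeR with the block. The higher ones were miR-667-3p (0.0381) and miR-376a-5p (0.04). The smallest adjusted p of a member in that fit was 0.388. The members split into 24 below 0 and 23 above, with a median log2 fold change of -0.01, which had either sign, from -0.03 to 0.03, over the alternatives. The 95% intervals reached from -1.14 to 0.70 over all members and from -0.26 to 0.32 over the 8 abundant ones.

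The smallest p without the block belonged to miR-376c-3p, with 237, 213, 191 and 188 CPM in shNTC replicates 1 to 4, 232, 205, 220.1 and 185 in shStau2 and 187, 179, 184 and 123 in shPum2. It was the only member whose shPum2 and shNTC libraries did not overlap (2.13% of members, beside 1.11% of all miRNAs), with shPum2 replicate 4 far below the rest. Its log2 fold change in shPum2 against shNTC was -0.30 (SE 0.14, unadjusted p = 0.0443, adjusted p = 0.982 in edgeR's test), and it was lower in 4 of 4 pairs. Without shPum2 replicate 4 it was -0.18. The strands of the neighbouring miR-376a and miR-376b did not show such a separation between shPum2 and shNTC. Each was higher in shPum2 in 3 of 4 pairs. In edgeR with the block their log2 fold changes were 0.25 (miR-376a-5p), 0.18 (miR-376a-3p), 0.13 (miR-376b-5p) and 0.05 (miR-376b-3p). Whether reads were exchanged between these names was not tested.

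Next by p came miR-667-3p, with 25.4, 25.3, 25.1 and 27.2 CPM in shNTC replicates 1 to 4, 24.5, 29.9, 26.8 and 28.1 in shStau2 and 25.0, 28.5, 33.6 and 35.5 in shPum2. It was higher in shPum2 in 3 of 4 pairs, and the log2 fold change was 0.25 (SE 0.13, adjusted p = 0.982 in edgeR's test). The strand miR-382-3p, the minor partner of the most abundant member, had 186, 177, 137.4 and 124.4 CPM in shNTC replicates 1 to 4, 135, 136.4, 126.5 and 114 in shStau2 and 159, 141, 105 and 97.7 in shPum2. Its log2 fold change in edgeR with the block was -0.32 (SE 0.09, adjusted p = 0.388). Without the block it was -0.31 (SE 0.17, adjusted p = 0.982 in edgeR's test). The strand was lower in 4 of 4 pairs, although the groups overlapped. For miR-299a-5p, with 47.1, 45.7, 54.5 and 45.8 CPM in shNTC replicates 1 to 4, 53.3, 51.0, 51.4 and 48.9 in shStau2 and 37.7, 44.8, 47.1 and 41.9 in shPum2, it was -0.17 (SE 0.11, adjusted p = 0.982 in edgeR's test), and -0.10 without shPum2 replicate 1 or -0.11 without shNTC replicate 3.

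The comparison of shStau2 with shPum2 sets Stau2 depletion against the other active shRNA. It shares its shStau2 libraries with the first comparison and its shPum2 libraries with the second, so the 3 sets of values are not independent. In edgeR's quasi-likelihood test with Benjamini-Hochberg adjustment 0 of 47 members passed (smallest adjusted p 0.451), beside 0.478% of all miRNAs, and 4 had an unadjusted p under 0.05, 2 higher and 2 lower, beside 9.39% of all. That count was 0 without shPum2 replicate 4, 1 without shStau2 replicate 1 and 2 without shStau2 replicate 3. DESeq2 called 0 (1.11% of all), and edgeR with the block called 0 (3.98% of all), with a smallest adjusted p of 0.051 and 7 members at an unadjusted p under 0.05, 3 higher and 4 lower (19.7% of all). DESeq2 with the block called 2 (5.41% of all), miR-300-3p lower and miR-376c-3p higher.

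Of the 47 members 31 were below 0 in shStau2 against shPum2, with a median log2 fold change of -0.05, beside 48.9% below 0 over all miRNAs. The median was -0.10 without shPum2 replicate 1, -0.09 without shPum2 replicate 2, -0.08 without shPum2 replicate 3, -0.11 with library totals and -0.02 with upper-quartile factors. Libraries did not overlap for 5 members (10.6%, beside 4.94% of all miRNAs): miR-299a-5p was higher in shStau2, and miR-300-3p, miR-376a-5p, miR-377-3p and miR-667-5p were lower. The 95% intervals reached from -0.97 to 1.26 over all members and from -0.47 to 0.23 over the 8 abundant ones.

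The abundant strand miR-300-3p, whose values are given above, averaged 1401 ± 95.7 CPM in shStau2, 1676 ± 76.3 in shPum2 and 1562 ± 242 in shNTC (SD, n = 4 each). Its log2 fold change in shStau2 against shPum2 was -0.26 (SE 0.10), lower in 4 of 4 pairs. The adjusted p was 0.451 in edgeR's test, 0.059 with the block and 0.0366 in DESeq2 with the block. The level in shNTC lay between the others and overlapped both.

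The strand miR-376c-3p averaged 211 ± 20.3 CPM in shStau2 and 168 ± 30.3 in shPum2, and shNTC stood at 207 ± 22.8 (SD, n = 4 each). Its log2 fold change in shStau2 against shPum2 was 0.32 (SE 0.14), higher in 4 of 4 pairs, with an adjusted p of 0.458 in edgeR's test, 0.051 with the block and 0.0305 in DESeq2 with the block. The shStau2 and shNTC means were close, and the shPum2 libraries were low. Without shPum2 replicate 4 the log2 fold change was 0.20.

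For miR-667-5p the log2 fold change in shStau2 against shPum2 was -0.41 (SE 0.16, adjusted p = 0.451 in edgeR's test), and for miR-299a-5p it was 0.25 (SE 0.11, adjusted p = 0.491). Every shStau2 library of miR-667-5p was below every shPum2 library. The reverse held for miR-299a-5p, whose reads may be shared with miR-299b-5p.

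**Figure D4:**
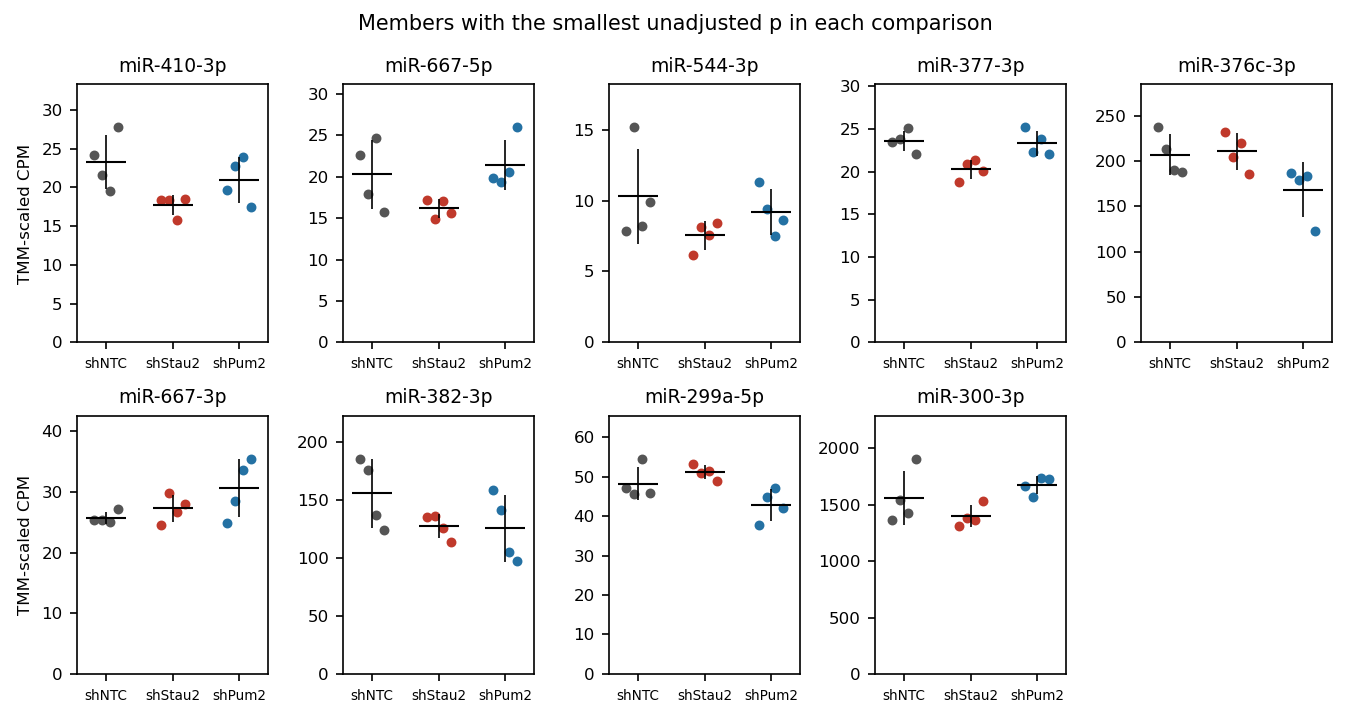
TMM-scaled CPM of the 9 members with the smallest unadjusted p in at least 1 comparison; points are the 4 libraries of each group from replicate 1 to 4, left to right, horizontal lines are means and vertical lines are 1 SD. The shStau2 points of miR-410-3p and miR-377-3p lie below all shNTC points, and the shPum2 points of miR-376c-3p lie below all shNTC points.

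Arm ratios gave no call in any comparison. In limma with Benjamini-Hochberg adjustment 0 of the 22 member hairpins passed in shStau2 against shNTC, shPum2 against shNTC and shStau2 against shPum2, and 0% of the 208 hairpins passed in each. With an unadjusted p under 0.05 there were 2, 0 and 2 member hairpins, beside 9.62%, 3.85% and 11.1% of all. With the replicate block 0 member hairpins passed in each, beside 0.481%, 0% and 0% of all, and 4, 1 and 2 had an unadjusted p under 0.05, beside 15.4%, 9.13% and 15.9%.

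The smallest p in shStau2 against shNTC belonged to miR-412. Its log2 ratio of 5p to 3p was 1.96, 1.46, 1.96 and 1.96 in shNTC replicates 1 to 4, 1.54, 1.19, 1.61 and 1.31 in shStau2 and 1.91, 1.495, 2.03 and 1.67 in shPum2. The shStau2 library was lower than the shNTC and the shPum2 library of the same number in 4 of 4 pairs each, although the ranges of the groups overlapped. The difference was -0.42 against shNTC (SE 0.17, adjusted p = 0.44 in limma) and -0.37 against shPum2 (SE 0.17, adjusted p = 0.45 in limma). With the block the unadjusted p was 0.00232 and 0.0054, and the adjusted p in limma was 0.111 and 0.144.

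For miR-410 the ratio was 0.26, 0.67, 0.62 and 0.15 in shNTC and 0.69, 0.90, 1.07 and 0.71 in shStau2. Every shStau2 library had a larger share of the 5p strand than every shNTC library. How many of the 208 hairpins separated in this way was not counted. For miR-410 the difference was 0.42 (SE 0.19, adjusted p = 0.486 in limma). Its unadjusted p in limma was 0.0458 without the block and 0.0725 with it. Besides miR-412, the block gave an unadjusted p under 0.05 in shStau2 against shNTC to miR-382, miR-323 and miR-667 (0.0302, 0.0307 and 0.0343 in limma). Their adjusted p was 0.266, 0.266 and 0.274. For miR-299a the difference was 0.29 in shStau2 against shPum2 (SE 0.12, adjusted p = 0.419 in limma).

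More members differed between replicate numbers than between groups. The test of the 4 numbers across groups (edgeR's quasi-likelihood F test with group and number as terms) called 8 of 47 members (17%), beside 26.1% of all 628 miRNAs, and 16 members had an unadjusted p under 0.05, beside 39.5% of all. The members called were 4 without the shStau2 libraries (9% of all miRNAs), 15 without the shNTC libraries (35% of all) and 5 without the libraries of number 3 (15.4% of all). The median fold between the highest and the lowest number was 1.19 for the members and 1.30 for all miRNAs. The sources used here do not say what a number stands for, such as a day or a preparation.

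The clearest was miR-668, with 83.4, 105 and 83.2 CPM in number 1, 111, 129 and 116 CPM in number 2, 65.1, 69.7 and 59.6 CPM in number 3 and 84.999, 103 and 113 CPM in number 4, for shNTC, shStau2 and shPum2 in that order. All 3 libraries of number 2 were high and all 3 of number 3 were low, a 1.83-fold difference of their means (adjusted p = 8.41e-05 in edgeR's test). The strand miR-411-3p followed the same pattern, with 79.4, 79.2 and 87.4 CPM in number 1, 93.5, 108 and 115 CPM in number 2, 61.4, 53.9 and 64.4 CPM in number 3 and 83.7, 75.1 and 78.0 CPM in number 4, a 1.76-fold difference between numbers 2 and 3 (adjusted p = 0.00011 in edgeR's test).

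High in number 2 and low in number 3 were also miR-412-3p, with means of 52.8 and 30.5 CPM (adjusted p = 0.000521 in edgeR's test), and miR-323-5p, with 85.4 and 58.1 CPM (adjusted p = 0.00459). Both are minor strands, and so is miR-411-3p. The major strands of these hairpins did not all follow them. Of these, miR-412-5p was called, with 138.5 CPM in number 1 and 112 in number 3 (adjusted p = 0.0348), while miR-411-5p and miR-323-3p were not.

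A different order was seen for miR-369-3p, with 591, 517 and 531 CPM in number 1, 545, 437 and 458 CPM in number 2, 503, 445 and 457 CPM in number 3 and 407, 349.7 and 295 CPM in number 4, again for shNTC, shStau2 and shPum2. Number 1 was the highest and number 4 the lowest in each group, with means of 546 and 350.4 CPM (1.56-fold, adjusted p = 0.000316 in edgeR's test). The strands miR-382-3p, with 159.96 and 112 CPM in numbers 1 and 4 (adjusted p = 0.00345), and miR-376c-3p, with 218.9 and 166 CPM (adjusted p = 0.0384), were also highest in number 1 and lowest in number 4.

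**Figure D5:**
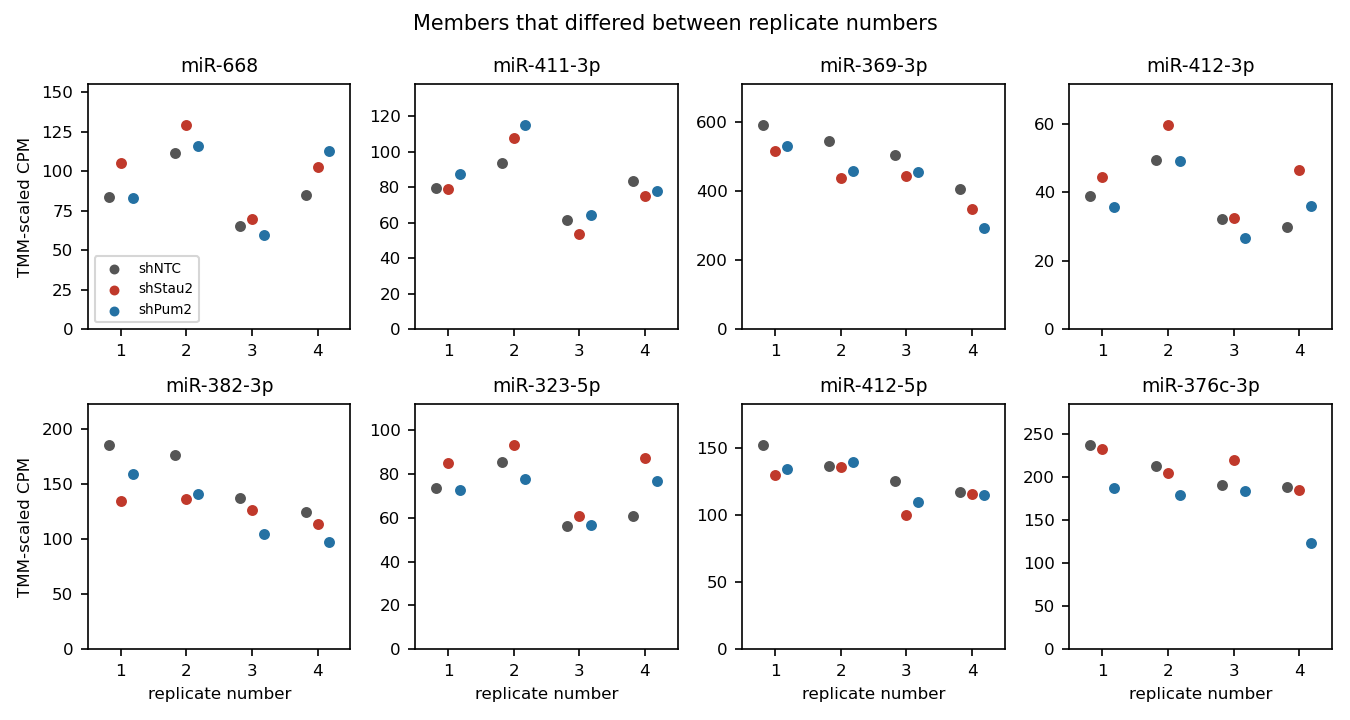
TMM-scaled CPM of the 8 members that differed between replicate numbers, with the number on the horizontal axis and each point 1 library, coloured by group. By their means, miR-668, miR-411-3p, miR-412-3p and miR-323-5p are highest in number 2 and lowest in number 3, and miR-369-3p, miR-382-3p and miR-376c-3p are highest in number 1 and lowest in number 4.

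The other miRNAs of the Dlk1-Dio3 locus, 45 names of which 44 were tested, were counted in the same fit, and the difference between the lists was not tested. Without the block edgeR called 1 of them, miR-495, which was lower in shStau2 than in shPum2 (46.7 against 83.8 CPM, log2 fold change -0.84, adjusted p = 0.0349), beside 0.478% of all miRNAs. It called 0 in the comparisons with shNTC, beside 0.318% (shStau2) and 0% (shPum2) of all. There 8 (shStau2) and 0 (shPum2) had an unadjusted p under 0.05, beside 11.3% and 1.43% of all. The call of miR-495, and every other call by edgeR without the block in shStau2 against shPum2, was lost when any 1 of shNTC replicates 1 and 3, shStau2 replicates 2 to 4 or shPum2 replicates 1, 3 and 4 was left out. With the block edgeR called 5 in shStau2 against shNTC, all lower (miR-758-3p, miR-495, miR-409b, miR-543-3p and miR-380-3p), beside 6.21% of all miRNAs. In shStau2 against shPum2 it called 5 (3.98% of all), of which miR-409b, miR-543-3p, miR-495 and miR-380-3p were lower and miR-434-3p was higher. In shPum2 against shNTC it called 0 (0.159% of all). For these 44 the median log2 fold change in shStau2 against shNTC was -0.08 with 29 below 0, close to the -0.07 and 31 of 47 of the members, and in shStau2 against shPum2 it was -0.14 beside -0.05. DESeq2 without the block called 4, all lower (miR-380-3p, miR-409b, miR-495 and miR-543-3p), in shStau2 against shNTC (2.87% of all). It called the same 4, all lower, in shStau2 against shPum2 (1.11% of all) and 0 in shPum2 against shNTC (0% of all). With the block DESeq2 called 5, all lower, in shStau2 against shNTC (6.05% of all). They were miR-329-5p, miR-380-3p, miR-409b, miR-495 and miR-543-3p, without the miR-758-3p that edgeR called. DESeq2 with the block called 5 lower and 1 higher in shStau2 against shPum2 (5.41% of all) and 0 in shPum2 against shNTC (0.318% of all). Those in shStau2 against shPum2 were miR-134-5p and the 5 that edgeR with the block had called.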

How the data were processed

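Small RNA was sequenced from 12 cultures of rat cortical neurons after library preparation with unique molecular identifiers, per the labels' protocols, which also give batch isolation of RNA and an RNA integrity of 9.5. The authors deposited whole-number counts per small RNA name, 1 table a library, not normalised. The submitters' processing notes name build Rnor 6.0. The aligner and counter are not given in the sources used here, nor whether molecules or reads were counted, so floors cover counting error only.

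The counts of the 685 miRNA names were fitted here with edgeR 4.0.16 in R 4.3.3 (TMM scaling, filterByExpr by group, quasi-likelihood test with robust estimation, all 12 libraries by group). Two-sided p-values were adjusted by Benjamini-Hochberg over all 628 miRNAs that passed the filter, and a miRNA was called at an adjusted p of 0.05. Standard errors are the log2 fold change over the root of the F statistic, and 95% intervals use the test's degrees of freedom. Arm ratios, log2 of the 5p over the 3p count with a pseudocount of 0.5, were tested with limma 3.58.1 over 208 hairpin names. DESeq2 1.42.0, other scalings, no filter, the replicate block and leaving out libraries were alternatives. The scripts were tested on simulated counts.

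The labels' numbers were checked for pairing by the correlation, across miRNAs, of each library's deviation from its group mean. Libraries that share a number gave r of 0.363 to 0.569 in 12 pairs, and the 36 other pairs gave -0.402 to 0.134. The numbers were therefore taken to pair the libraries. The main fits are by group only and leave this pairing out. Rankings by p, standard errors, intervals and adjusted p-values between groups are from them unless the block is named. In shStau2 against shNTC the standard error of miR-369-3p was 0.17 without the block and 0.08 with it. No libraries of a group agreed within sampling noise (lowest chi-square per degree of freedom 28.2).

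Values per library are given for the 8 most abundant members and for the 4 with the smallest unadjusted p in each comparison. Further members were named after their values were seen: miR-409a-5p, miR-376a-3p, miR-376a-5p, miR-376b-5p, and those that differed between replicate numbers. The members and lists were chosen with earlier results of these data known. Mature sequences and positions are from RefSeq, build GRCr8, matched by name, and no position was taken from the authors' files.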

Additional observations from a re-analysis of the deposited data

Results flagged for a closer look

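In 18 of 210 groups of 4 libraries, 1 library stood apart from the other 3 by Dixon's ratio (gap over range, at its 95% critical value). Chance gives about 1 in 20 such groups. They were 12 of 141 groups of levels and 6 of 66 groups of arm ratios.

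Replicate 4 was the high library in most of the abundant strands concerned. It was the highest for miR-379-5p in shStau2 (3340.5 CPM, the next library at 3025) and in shPum2 (3639 CPM, the next at 3189), for miR-411-5p in shStau2 (1899 CPM, the next at 1752) and for miR-541-5p in shStau2 (1137 CPM, the next at 1005). In shNTC it was the highest for miR-379-3p (105 CPM, the next at 88.4) and for miR-667-3p (27.2 CPM, the next at 25.4). It was the lowest for miR-376c-3p in shPum2 (123 CPM, the next at 179).

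Replicate 3 stood apart for other strands. In shPum2 it was the highest for miR-299a-3p (41.1 CPM), in shNTC the highest for miR-299a-5p (54.5 CPM), and in shStau2 the lowest for miR-409a-5p (196 CPM) and miR-410-3p (15.8 CPM). Replicate 2 was the lowest for miR-411-5p in shPum2 (1770.3 CPM).

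Among the log2 ratios of 5p to 3p, shNTC replicate 3 was the highest for miR-154 (6.09), miR-299a (0.60) and miR-300 (-5.25). The ratio of miR-299b was lowest in shStau2 replicate 2 (-2.18), that of miR-369 highest in shNTC replicate 4 (1.62) and that of miR-412 lowest in shNTC replicate 2 (1.46).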

How the results depend on the processing

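The alternatives were other scalings, no filter, DESeq2, a fit of 8 libraries, the replicate block and leaving out libraries. In shStau2 against shNTC the count of members called was 0 in all of them but 1: with the block and library totals in place of TMM it was 2, miR-369-3p and miR-382-3p, beside 6.21% of all miRNAs. In shPum2 against shNTC it was 0 in all 26. In shStau2 against shPum2 it was 2 in DESeq2 with the block (5.41% of all), 1 (miR-300-3p) with the block and library totals (4.14% of all) and 1 (miR-376c-3p) with the block and upper-quartile factors (6.37% of all). When libraries were left out it was 0 to 2, and the 2 (miR-300-3p and miR-376c-3p) came with the block and without replicate 2 (8.15% of all). The cause was not tested. The replicate block with TMM and all 12 libraries called 0 members in each comparison in edgeR. Every call of a member between groups, in edgeR and in DESeq2, came in a setting with the block.

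The count of members that differed between replicate numbers, 8, was 14 with library totals (31.2% of all), 15 without shNTC (35% of all) and 4 without shStau2 (9% of all). Leaving out 1 number at a time, added after seeing the data, gave 5 to 9, with 5 without number 3 (15.4% of all). The settings without a group or a number fit fewer libraries, and the cause was otherwise not tested. Arm ratios gave 0 calls among the member hairpins in all 15 alternatives of each comparison. For the 4 members with the smallest p in each comparison, no log2 fold change reversed. The sign of other named fold changes and of arm ratios was not followed over the alternatives. Over all 628 miRNAs, the calls in shStau2 against shNTC ranged from 1 to 39, in shPum2 against shNTC from 0 to 2 and in shStau2 against shPum2 from 0 to 51. With the block and without replicate 4, 5 miRNAs were called in shStau2 against shNTC in place of 39. Depth was lowest for the 10 members under 10 CPM.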
